A study of Mus musculus with 12 samples.

Results

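The genes described here are 9 transcription factors of macrophages: Spi1, Cebpa, Cebpb, Cebpd, Maf, Prdm1, Bhlhe40, Bhlhe41 and Runx1. They were taken by name from a table of 24421 mouse gene symbols. All 9 were found, and all 9 were among the 10899 genes that passed the minimum level for testing (at least 1 CPM in at least 2 libraries; CPM are reads of a gene scaled to a common total of reads in genes). The data were mRNA sequencing of RAW 264.7 cells, a transformed macrophage line labelled with the strain BALB/c, as 12 libraries in 6 groups of 2. KO cells, labelled as knockout for the ADP-ribosyltransferase gene Parp14, were treated with lipopolysaccharide (LPS, a bacterial product sensed by the receptor TLR4; KO_LPS) or left untreated (KO_UT). Wild-type (WT) cells were treated with LPS and a Jak inhibitor (WT_LPS_JAKi), with LPS (WT_LPS), with the inhibitor alone (WT_JAKi) or left untreated (WT_UT), and all treatments lasted 2 h. The labels give neither the inhibitor's name and dose nor how many KO clones there were, so a difference between KO and WT cells cannot be told apart from a difference between the cell lines that were compared.

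As background, macrophage identity rests on a small set of DNA-binding proteins. PU.1, the ETS-family product of Spi1, opens the enhancers of myeloid genes and works with C/EBP proteins and with RUNX1, which is also needed earlier in blood formation. C/EBP beta and delta are bZIP factors of the inflammatory response, whereas C/EBP alpha is best known for myeloid commitment. BLIMP-1 (Prdm1) is a zinc-finger repressor, c-MAF is a bZIP factor of the Il10 gene and of macrophage differentiation, and BHLHE40 and BHLHE41 are closely related basic helix-loop-helix repressors that bind E-boxes.

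Libraries held 35.9 to 45.7 M reads in genes. Parp14, the targeted gene, stood at 37.7 ± 3.96 CPM in KO_LPS and 10.99 ± 1.39 CPM in KO_UT cells, against 367 ± 73.8 CPM in WT_LPS and 88.1 ± 16.5 CPM in WT_UT cells (SD, n = 2 each), so its reads were reduced in KO cells but not absent. All 12 defining macrophage markers were in the table, and 11 of them passed the minimum level for testing. Their summed level was 11800 to 13000 CPM in KO_LPS and 13400 to 15800 CPM in KO_UT libraries. It was 14300 to 14800 CPM in WT_LPS_JAKi, 14100 to 14300 CPM in WT_LPS, 15100 to 15700 CPM in WT_JAKi and 14700 to 16400 CPM in WT_UT libraries. Most of the sum was Lyz2, with means of 6654 CPM in KO_LPS and 9631 CPM in WT_UT cells. Summed markers of B cells reached at most 0.301 CPM, of neutrophils 0.85 CPM, of erythroid and mast cells 0.251 CPM, of T and NK cells 2.75 CPM and of fibroblasts, epithelium and endothelium 1.33 CPM. Those of dendritic cells were 9.15 to 12.6 CPM in libraries with LPS and 3.35 to 4.46 CPM in those without. Ms4a1, Ebf1, Cd3e, Cd3g, Ncr1, Ngp, S100a9, Cd209a, Gata1, Hbb-b1, Hba-a1, Col3a1, Epcam, Krt8 and Krt18 were at 0 in all libraries. With LPS the median of all tested genes moved by -0.29 in KO, -0.27 in inhibitor-treated WT and -0.30 in WT cells on the log2(CPM + 1) scale. Rescaled by the median of ratios, these medians were -0.05, -0.05 and -0.06.

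Promoter sequences from RefSeq (GRCm38.p6) were found for 5 of the 9 genes, in 6 entries, as the 250 bases before each start; Spi1, Cebpd, Maf and Bhlhe40 had no entry. Those of the BLIMP-1 gene, of Bhlhe41 and of Cebpa are shown because LPS moved these genes strongly up, strongly down and moderately down. Capitals mark the match to a searched motif, and the letters run 5′ to 3′ in the direction of the gene. The Prdm1 window (chr10:44458749-44458998, minus strand; its start lies inside the annotated gene) held the AP-1 motif TGANTCA, the Bhlhe41 window (chr6:145865421-145865670, minus strand; its start also lies inside the annotated gene, which reaches to 145865558) the E-box CACGTG, and the Cebpa window (chr7:35119043-35119292, plus strand) the TATA motif TATAAA.
Prdm1: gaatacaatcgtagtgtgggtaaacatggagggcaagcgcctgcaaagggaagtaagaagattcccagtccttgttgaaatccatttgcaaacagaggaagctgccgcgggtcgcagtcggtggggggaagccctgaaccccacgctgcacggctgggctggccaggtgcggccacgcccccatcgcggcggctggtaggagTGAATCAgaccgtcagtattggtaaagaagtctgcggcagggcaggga
Bhlhe41: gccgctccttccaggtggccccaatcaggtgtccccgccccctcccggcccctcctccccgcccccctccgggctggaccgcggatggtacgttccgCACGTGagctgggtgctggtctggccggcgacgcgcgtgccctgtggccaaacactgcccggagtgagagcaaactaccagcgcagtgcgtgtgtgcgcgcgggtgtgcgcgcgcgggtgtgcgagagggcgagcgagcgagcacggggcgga
Cebpa: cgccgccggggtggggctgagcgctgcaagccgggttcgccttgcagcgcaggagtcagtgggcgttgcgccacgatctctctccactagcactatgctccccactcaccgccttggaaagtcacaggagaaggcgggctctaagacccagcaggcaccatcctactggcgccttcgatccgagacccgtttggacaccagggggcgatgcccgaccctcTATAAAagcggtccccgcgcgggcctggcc
The AP-1 match lay at -48 to -42 from the start of Prdm1, the E-box at -153 to -148 from that of Bhlhe41 and the TATA match at -30 to -25 from that of Cebpa. Of 32851 mouse promoter windows searched on both strands, 6.75% held TGANTCA, 6.02% CACGTG and 12.4% TATAAA. A window of Runx1 (chr16:92826075-92826324, minus strand) also held CACGTG, at -71 to -66, while the other Runx1 window and that of Cebpb held none of the motifs searched. Both Runx1 starts lie inside the annotated gene, and the bases after the start of the other window matched no annotated transcript. The other motifs searched were TTGCGCAA and TTGCNNCAA (C/EBP, as a palindrome and as a wider pattern that overlaps it), GAGGAAGT (PU.1), TGTGGT (RUNX), TGACGTCA (CRE), TTCNNNGAA (STAT), GAAANNGAA (interferon response element) and the NF-kB consensus, found in 0.164%, 1.74%, 2.44%, 14.0%, 1.55%, 7.02%, 7.13% and 7.25% of windows. The Cebpb window was 81.6% G and C with 41 CpG, against a median of 52.4% and 6 over all windows.

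With 2 h of LPS, the lineage factor Spi1 rose and Runx1 fell in each of the 3 settings in which LPS was given. Spi1 (ENSMUSG00000002111.8; GRCm38 chromosome 2, 91082390 to 91115756, plus strand, 5 exons) had 542 and 521 CPM in KO_LPS, against 258 and 278 CPM in KO_UT cells. In WT cells with the inhibitor it had 645 and 615 CPM with LPS, against 254 and 278 CPM without. It had 564 and 603 CPM in WT_LPS, against 282 and 286 CPM in WT_UT cells. No library with LPS overlapped one without, and the ratio of group means was 1.98 in KO cells, 2.37 with the inhibitor and 2.06 in WT cells. The log2 changes were 0.99 in KO cells (adjusted p = 1.25e-06), 1.24 in inhibitor-treated WT cells (adjusted p = 3.14e-07) and 1.04 in WT cells (adjusted p = 9.47e-07), each with an SE of 0.068. In these bulk samples, a change in the share of cells with high levels and a change of RNA per cell cannot be told apart.

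Runx1 (ENSMUSG00000022952.17; chromosome 16, 92601466 to 92826149, minus strand, 8 exons) had 47.8 and 35.8 CPM in KO_LPS, against 73.3 and 59.1 CPM in KO_UT cells. It had 40.95 and 34.4 CPM in WT_LPS_JAKi, against 82.7 and 70.8 CPM in WT_JAKi cells. In WT_LPS it had 39.7 and 33.7 CPM, against 75.2 and 64.7 CPM in WT_UT cells. All libraries with LPS were below all without. The log2 change was -0.66 in KO cells (SE 0.16, adjusted p = 0.0055), -1.01 with the inhibitor (SE 0.16, adjusted p = 0.000426) and -0.91 in WT cells (SE 0.16, adjusted p = 0.000752). All tested genes also shifted down with LPS at the median. After rescaling, the changes of Runx1 were -0.41 (adjusted p = 0.04745), -0.77 (adjusted p = 0.00204) and -0.65 (adjusted p = 0.00519). The call in KO cells was lost without KO_LPS replicate 2 (adjusted p = 0.052), without KO_UT replicate 1 (adjusted p = 0.05023), by edgeR (adjusted p = 0.073) and by DESeq2 (adjusted p = 0.065).

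**Figure D1:**
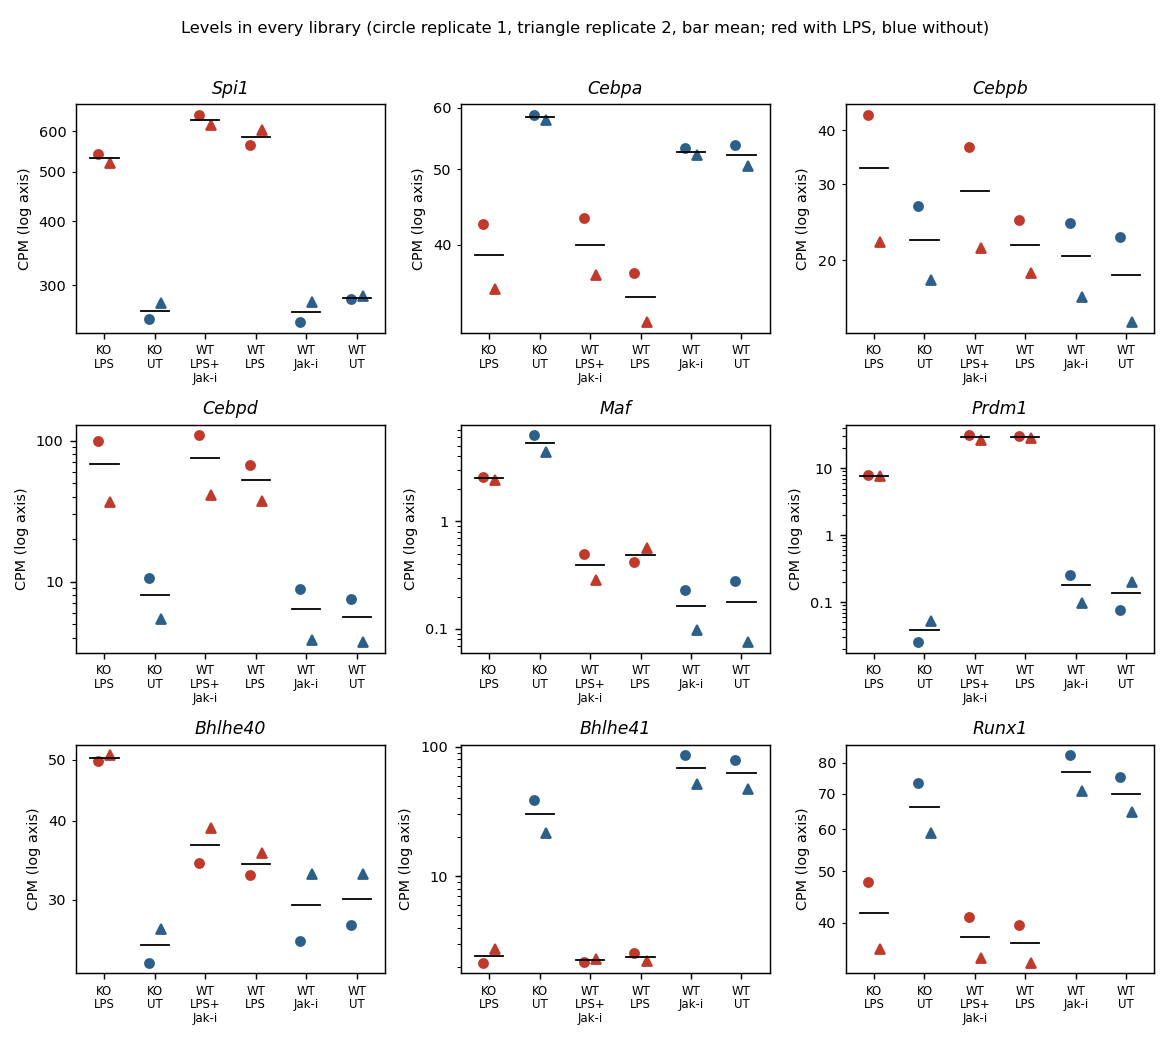
Level of each of the 9 genes in every library, in CPM on a log axis that differs between panels, by group; circles are replicate 1, triangles replicate 2, bars group means, red groups had LPS and blue groups did not. Spi1, Cebpd and Prdm1 stand higher in all red groups, Cebpa, Bhlhe41 and Runx1 lower, and Maf is set apart in KO cells, at 2.499 and 5.37 CPM on average.

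Among the C/EBP genes, Cebpd rose with LPS, Cebpa fell and Cebpb was called only with the replicate number as a block. Cebpd (ENSMUSG00000071637.5; chromosome 16, 15887286 to 15891031, plus strand, 1 exon) had 99.9 and 36.9 CPM in KO_LPS, against 10.6 and 5.41 CPM in KO_UT cells. It had 109 and 41.2 CPM in WT_LPS_JAKi, against 8.81 and 3.87 CPM in WT_JAKi cells. In WT_LPS it had 67.6 and 37.2 CPM, against 7.56 and 3.70 CPM in WT_UT cells. The lowest library with LPS was above the highest without, although replicate 1 exceeded replicate 2 in every group. Log2 changes were 2.84 in KO cells (SE 0.61, adjusted p = 0.00234), 3.30 with the inhibitor (SE 0.61, adjusted p = 0.000975) and 3.01 in WT cells (SE 0.61, adjusted p = 0.00164). Within libraries of the same replicate number the change was 3.118 and 2.564 in KO cells, 3.492 and 3.115 with the inhibitor and 3.002 and 3.024 in WT cells. Cebpd shares 562 exon bases, 15.0% of its exon length, with Spidr on the opposite strand, which had 41.2 to 64.6 CPM, and without a stated strand setting their reads cannot be told apart there.

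Cebpa (ENSMUSG00000034957.10; chromosome 7, 35119293 to 35121928, plus strand, 1 exon) had 42.6 and 35.1 CPM in KO_LPS, against 58.7 and 57.9 CPM in KO_UT cells. It had 43.3 and 36.6 CPM in WT_LPS_JAKi, against 53.2 and 52.2 CPM in WT_JAKi cells. It had 36.8 and 31.8 CPM in WT_LPS, against 53.8 and 50.5 CPM in WT_UT cells. Every library with LPS was below every library without. The log2 change was -0.58 in KO cells (SE 0.11, adjusted p = 0.00106), -0.40 with the inhibitor (SE 0.11, adjusted p = 0.01) and -0.59 in WT cells (SE 0.11, adjusted p = 0.000933). All tested genes also shifted down with LPS at the median, and after rescaling the changes of Cebpa were -0.33 (adjusted p = 0.0226), -0.16 (adjusted p = 0.226) and -0.33 (adjusted p = 0.0227). With the inhibitor the call was also lost by edgeR (adjusted p = 0.399), by DESeq2 (adjusted p = 0.516) and without WT_LPS_JAKi replicate 2 (adjusted p = 0.083).

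Cebpb (ENSMUSG00000056501.3; chromosome 2, 167688915 to 167690418, plus strand, 1 exon), a gene often used as a marker of inflammatory activation, had 43.4 and 22.1 CPM in KO_LPS, against 26.7 and 18.0 CPM in KO_UT cells. It had 36.6 and 21.4 CPM in WT_LPS_JAKi, against 24.4 and 16.5 CPM in WT_JAKi cells, and 24.8 and 18.7 CPM in WT_LPS, against 22.7 and 14.4 CPM in WT_UT cells. The groups overlapped in each setting, and the log2 changes of 0.48 (adjusted p = 0.277), 0.46 (adjusted p = 0.302) and 0.24 (adjusted p = 0.592) missed the threshold, each with an SE of 0.37. With the replicate number as a block the same changes were called, at adjusted p = 0.000427, 0.000616 and 0.0372, and both replicate numbers were higher with LPS in all 3 settings.

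**Figure D2:**
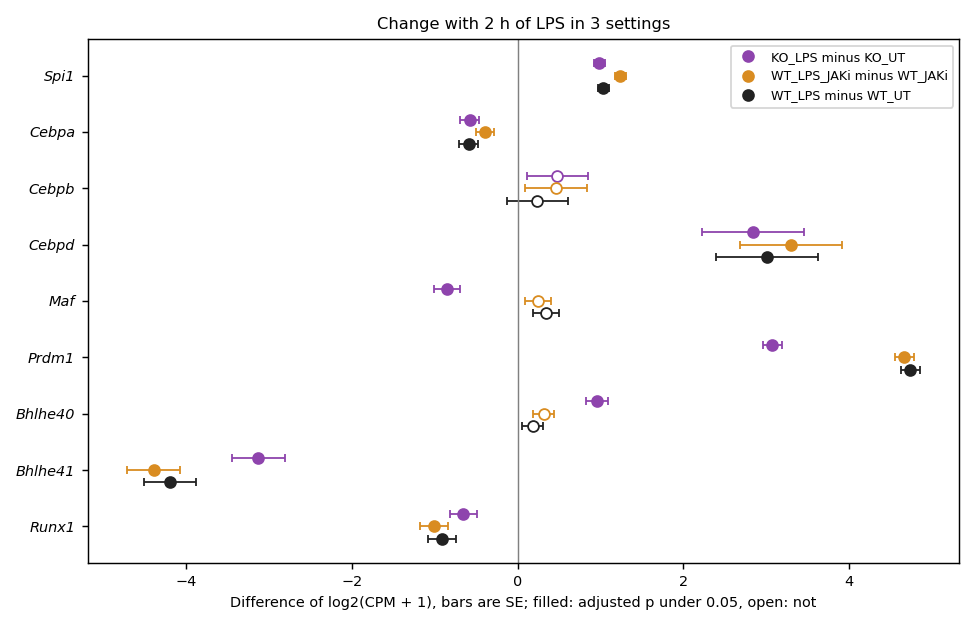
Difference of log2(CPM + 1) between cells with and without LPS (x axis) for the 9 genes (y axis) in KO, inhibitor-treated WT and WT cells; points are estimates, bars SE, filled points have an adjusted p under 0.05. Prdm1 and Cebpd lie farthest to the right and Bhlhe41 farthest to the left, at -3.13, -4.39 and -4.19.

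Prdm1 was nearly silent without LPS and rose with it. Prdm1 (ENSMUSG00000038151.13; chromosome 10, 44437177 to 44528501, minus strand, 9 exons) had 7.87 and 7.65 CPM in KO_LPS, against 0.025 and 0.052 CPM in KO_UT cells. It had 31.5 and 26.6 CPM in WT_LPS_JAKi, against 0.258 and 0.098 CPM in WT_JAKi cells. It had 30.9 and 28.1 CPM in WT_LPS, against 0.076 and 0.20 CPM in WT_UT cells. The libraries with LPS were far above those without in each setting, and the log2 changes were 3.08 in KO cells (SE 0.11, adjusted p = 2.45e-08), 4.67 with the inhibitor (SE 0.11, adjusted p = 2.02e-09) and 4.74 in WT cells (SE 0.11, adjusted p = 1.76e-09). As ratios of pooled levels these were 202 in KO cells (95% exact interval 68.8 to 982, from 610 and 3 reads), 165 with the inhibitor (98 to 302, from 2180 and 14 reads) and 214 in WT cells (119 to 428, from 2563 and 11 reads). Such intervals cover counting error only. All libraries without LPS stayed under 1 CPM, so Prdm1 passed the minimum level for testing only through libraries with LPS. Its tests of cells with against without LPS are therefore not independent of that filter.

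Bhlhe41 fell with LPS more than any other of the 9 genes, whereas its relative Bhlhe40 rose in KO cells. Bhlhe41 (ENSMUSG00000030256.11; chromosome 6, 145858243 to 145865558, minus strand, 5 exons) had 2.14 and 2.72 CPM in KO_LPS, against 38.9 and 21.4 CPM in KO_UT cells. It had 2.16 and 2.30 CPM in WT_LPS_JAKi, against 86.1 and 51.9 CPM in WT_JAKi cells. In WT_LPS it had 2.54 and 2.22 CPM, against 78.8 and 46.8 CPM in WT_UT cells. All 6 libraries with LPS lay within 2.14 to 2.72 CPM, below every library without. The log2 changes were -3.13 in KO cells (SE 0.32, adjusted p = 1.57e-05), -4.39 with the inhibitor (SE 0.32, adjusted p = 1.74e-06) and -4.19 in WT cells (SE 0.32, adjusted p = 2.23e-06). Bhlhe41 shares 855 exon bases (13.7%) with the opposite-strand gene Gm43909.

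Bhlhe40 (ENSMUSG00000030103.11; chromosome 6, 108660629 to 108666925, plus strand, 5 exons) had 49.7 and 50.8 CPM in KO_LPS, against 23.8 and 27.0 CPM in KO_UT cells. It had 34.3 and 39.0 CPM in WT_LPS_JAKi, against 25.8 and 32.9 CPM in WT_JAKi cells, and 32.9 and 35.6 CPM in WT_LPS, against 27.3 and 32.9 CPM in WT_UT cells. The groups were separate in KO cells and with the inhibitor and overlapped at 32.9 CPM in WT cells. The log2 change was 0.96 in KO cells (SE 0.13, adjusted p = 0.000106), 0.32 with the inhibitor (SE 0.13, adjusted p = 0.0529) and 0.18 in WT cells (SE 0.13, adjusted p = 0.228). In the blocked fit the last 2 were called at adjusted p = 0.000605 and 0.0213. Rescaled, they were 0.55 (adjusted p = 0.00577) and 0.44 (adjusted p = 0.0171).

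Maf fell with LPS in KO cells, while its estimate in WT cells was above 0 and not called. Maf (ENSMUSG00000055435.6; chromosome 8, 115682942 to 115707794, minus strand, 3 exons) had 2.59 and 2.41 CPM in KO_LPS, against 6.32 and 4.42 CPM in KO_UT cells, a change of -0.85 on the log2 scale (SE 0.16, adjusted p = 0.00092). It had 0.492 and 0.284 CPM in WT_LPS_JAKi, against 0.232 and 0.098 CPM in WT_JAKi cells, a change of 0.25 (SE 0.16, adjusted p = 0.189). In WT_LPS it had 0.416 and 0.561 CPM, against 0.279 and 0.075 CPM in WT_UT cells, a change of 0.34 (SE 0.16, adjusted p = 0.0788). All WT libraries stayed under 1 CPM, so Maf passed the minimum level for testing only through KO libraries. Its tests of KO against WT cells are therefore not independent of that filter. The ratio of pooled levels with and without LPS was 0.462 in KO cells (0.388 to 0.549, from 196 and 421 reads) and 2.75 in WT cells (1.47 to 5.45, from 42 and 14 reads). DESeq2 did not call the fall in KO cells (adjusted p = 0.057), while the value in WT cells was called with the block (adjusted p = 0.0238), after rescaling (0.41, adjusted p = 0.0428) and by edgeR (1.75, adjusted p = 0.0194).

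By count, 8 of the 9 genes were called with LPS in KO cells (4 higher, 4 lower), 6 with the inhibitor present (3 higher, 3 lower) and 6 in WT cells (3 higher, 3 lower). Over all tested genes 66.7% were called in KO cells, 64.2% with the inhibitor and 67.3% in WT cells, and of those called 1518, 1466 and 1493 were higher and 5748, 5535 and 5839 lower. In this fit the share of members called in WT cells and with the inhibitor was near the background. Prdm1 was among those called in each setting, and it passed the minimum level for testing only through libraries with LPS. The median change of the 9 genes was 0.48, 0.32 and 0.24, against -0.29, -0.27 and -0.30 over all tested genes. In the blocked fit 9, 8 and 9 members were called, with 80.5%, 78.1% and 80.8% of all genes. After rescaling, 8, 6 and 8 members were called (4 higher and 4 lower, 4 and 2, and 5 and 3), with 59.6%, 59.1% and 58.7% of all genes (2742 higher and 3736 lower, 2772 and 3651, and 2737 and 3651). By edgeR 7, 6 and 8 members were called, with 59.8%, 58.6% and 59.4% of all genes, and by DESeq2 6, 7 and 8, with 59.6%, 58.9% and 60.0%.

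The make-up of both families changed with LPS on a per-length scale. Of the CPM per kb of Bhlhe40 and Bhlhe41 together, Bhlhe41 held 2.13 to 3.77% in the 6 libraries with LPS and 28.7 to 62.8% in the 6 without. Of the C/EBP sum, Cebpd held 26.0 to 41.7% with LPS and 3.26 to 6.62% without, and Cebpa held 22.5 to 35.5% with LPS and 52.0 to 64.5% without. The share of Cebpb overlapped, at 34.0 to 40.3% with LPS and 32.2 to 41.8% without. These shares restate the levels above, over the 3 C/EBP and 2 BHLHE genes followed here only.

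**Figure D3:**
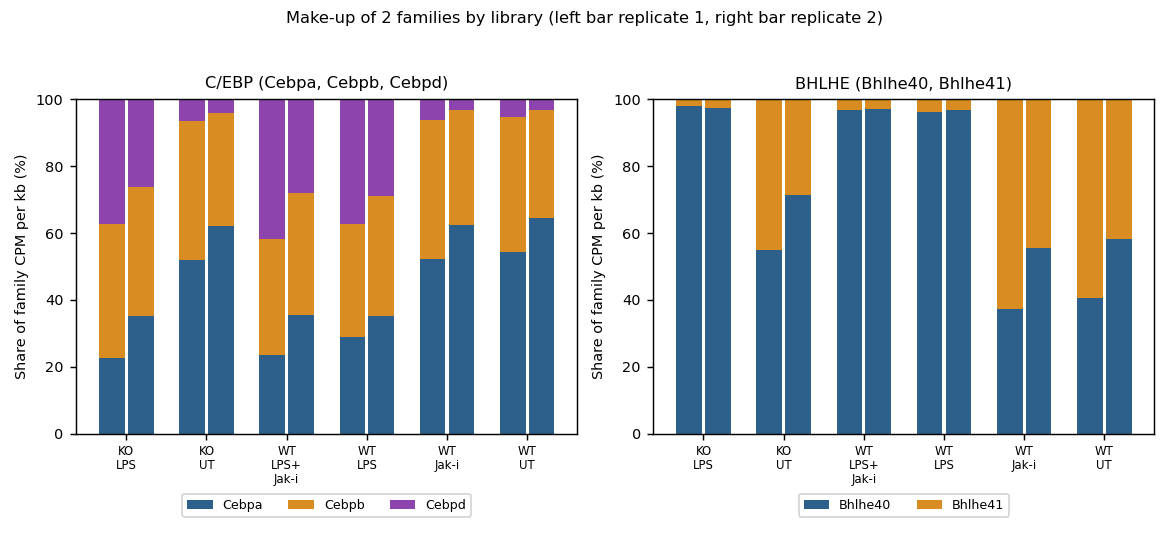
Share of each gene in the summed CPM per kb of its family (y axis, percent) for the C/EBP and the BHLHE genes, by group (x axis), left bar replicate 1 and right bar replicate 2. The Cebpd share is 26.0 to 41.7% in groups with LPS and at most 6.62% without, and the Bhlhe41 share is at most 3.77% with LPS.

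Between KO and WT cells with LPS, Prdm1 was lower in KO cells and Maf and Bhlhe40 were higher. The question is whether loss of Parp14, a gene named in the study's title with interferon-inducible proteins, goes with other levels of these factors. Prdm1 stood at 7.76 ± 0.155 CPM in KO_LPS cells and 29.5 ± 1.99 CPM in WT_LPS cells (SD, n = 2 each), with no overlap, a change of -1.80 on the log2 scale (SE 0.11, adjusted p = 1.15e-05). As a ratio of pooled levels that was 0.262 (0.240 to 0.287). Maf stood at 2.499 ± 0.125 CPM in KO_LPS cells and 0.488 ± 0.102 CPM in WT_LPS cells, a change of 1.23 on the log2 scale (SE 0.16, adjusted p = 0.000765) and a ratio of 5.14 (3.67 to 7.36). Bhlhe40 stood at 50.3 ± 0.796 CPM in KO_LPS cells and 34.2 ± 1.96 CPM in WT_LPS cells, a change of 0.54 on the log2 scale (SE 0.13, adjusted p = 0.0201). The Bhlhe40 call was lost when any of the 4 libraries was left out (adjusted p = 0.062 to 0.12), and it held in the blocked fit (adjusted p = 2.41e-05).

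The other 6 genes were not called with LPS present when the replicate number was left out of the fit. Cebpb stood at 32.7 ± 15.1 CPM in KO_LPS and 21.7 ± 4.33 CPM in WT_LPS cells, a change of 0.51 (adjusted p = 0.476; with the block 0.00115). Runx1 stood at 41.8 ± 8.53 CPM in KO_LPS and 36.7 ± 4.25 CPM in WT_LPS cells, a change of 0.17 (adjusted p = 0.606; with the block 0.0257). Spi1 differed by -0.13 (95% interval -0.29 to 0.020), Cebpa by 0.17 (-0.077 to 0.42), Cebpd by 0.27 (-1.10 to 1.65) and Bhlhe41 by 0.018 (-0.69 to 0.73). In all, 3 of 9 members were called, 2 higher and 1 lower, beside 13.9% of all tested genes, and 5 with the block, beside 31.5%. The median change of the 9 was 0.17, against 0.0015 over all tested genes. Maf, among those called, passed the minimum level for testing only through KO libraries. With the 5 CPM filter, where Maf was not tested, 2 of 8 members were called.

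In untreated cells the KO difference was in Maf, which was nearly undetected in WT cells. It passed the minimum level for testing only through KO libraries, so this test is not independent of that filter. It had 6.32 and 4.42 CPM in KO_UT cells, against 0.279 and 0.075 CPM in WT_UT cells, from 421 and 14 reads. The log2 change was 2.42 (SE 0.16, adjusted p = 1.83e-05), and the ratio of pooled levels was 30.6 (18.0 to 56.4). Bhlhe41 stood at 30.2 ± 12.3 CPM in KO_UT and 62.8 ± 22.6 CPM in WT_UT cells, with no overlap, and its change of -1.05 (SE 0.32) missed the threshold at adjusted p = 0.0741. Libraries of the same number differed by -1.001 and -1.092, and with the block the change was called at adjusted p = 0.0017, as it was by DESeq2 (adjusted p = 0.00894).

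The remaining 7 genes were not called in untreated cells when the replicate number was left out of the fit. Prdm1 had 3 reads over both KO_UT libraries and 11 over both WT_UT libraries, a ratio of 0.277 (0.0497 to 1.05). Cebpd had a difference of 0.45 (adjusted p = 0.822) and Bhlhe40 of -0.23 (adjusted p = 0.384), and both were called with the block, at adjusted p = 0.0188 and 0.0205. Spi1 differed by -0.084 (95% interval -0.24 to 0.070), Cebpa by 0.16 (-0.088 to 0.41), Cebpb by 0.26 (-0.57 to 1.10) and Runx1 by -0.083 (-0.45 to 0.29). So 1 of 9 members was called, beside 9.68% of all tested genes, and 4 with the block, beside 24.6%. The median change of the 9 was -0.083, against -0.0091 over all tested genes. The called member was Maf, and with the 5 CPM filter, where it was not tested, 0 of 8 were called.

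**Figure D4:**
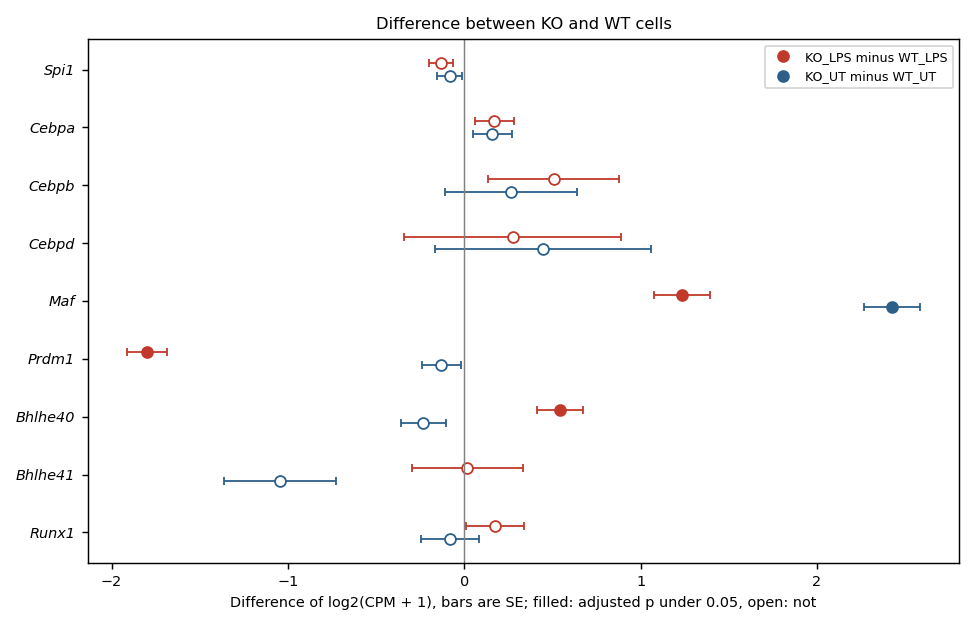
Difference of log2(CPM + 1) between KO and WT cells (x axis) with LPS and untreated, for the 9 genes (y axis); points are estimates, bars SE, filled points have an adjusted p under 0.05. Maf lies right of 0 in both conditions, at 1.23 and 2.42, and Prdm1 is at -1.80 with LPS.

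The response to LPS was then compared between KO and WT cells by the interaction term. Prdm1 was called on the log2(CPM + 1) scale, with a term of -1.67 (KO change minus WT change; SE 0.16, adjusted p = 0.00335). The ratios of levels with and without LPS, 202 and 214, had overlapping intervals, and the interaction was -1.48 with a pseudocount of 0.25 (adjusted p = 0.122), -0.18 by edgeR (adjusted p = 0.9998) and -0.093 by DESeq2 (adjusted p = 1.0). For Maf the term was -1.19 (SE 0.22, adjusted p = 0.0658, with the block 0.00147). For Bhlhe40 it was 0.77 (SE 0.18, adjusted p = 0.161, with the block 0.000274). For Bhlhe41 it was 1.06 (SE 0.45, adjusted p = 0.75, with the block 0.0665). DESeq2 called Maf (-2.59, adjusted p = 0.0226) and Bhlhe40 (0.78, adjusted p = 0.0485). By edgeR neither was called, with -2.56 for Maf (adjusted p = 0.279) and 0.78 for Bhlhe40 (adjusted p = 0.292). Among all tested genes 0.413% were called, and 3.79% with the block, where 3 members were called. Without the block the other 5 members had an unadjusted p over 0.05, and in the blocked fit 5 of the 9 were under it. Of the 10899 tested genes, 674 had an unadjusted p under 0.05 without the block and 1624 with it.

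In the 3 comparisons that test the Jak inhibitor itself, none of the 9 genes was called by limma, edgeR or DESeq2, and none had an unadjusted p under 0.05 by these 3 tools. Added to LPS, the inhibitor left Prdm1 at 31.5 and 26.6 CPM in WT_LPS_JAKi, against 30.9 and 28.1 CPM in WT_LPS cells, a ratio of pooled levels of 0.980 (0.925 to 1.04). The changes ran from -0.10 for Maf (95% interval -0.46 to 0.25) to 0.42 for Cebpd (-0.96 to 1.79), with a median of 0.094, and 1.11% of all tested genes were called. In cells without LPS they ran from -0.094 for Spi1 (-0.25 to 0.059) to 0.14 for Cebpb (-0.69 to 0.98), with a median of 0.049, and 0.0% of genes were called (111 had an unadjusted p under 0.05 by limma, and edgeR and DESeq2 called 0 and 2). The interaction of the inhibitor with LPS ran from -0.20 for Bhlhe41 (-1.20 to 0.80) to 0.29 for Cebpd (-1.66 to 2.24), with a median of 0.13, and 0.587% of genes were called. The SE of Cebpd in the comparisons with and without LPS was 0.61 in this fit and 0.13 in the blocked fit. In the blocked fit 4, 1 and 1 members had an unadjusted p under 0.05 in these comparisons and 0 were called. Of the 10899 tested genes, 2176, 763 and 2066 had an unadjusted p under 0.05 in that fit, and 446, 4 and 318 were called.

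Levels per length set the 9 genes far apart. In WT_UT cells Spi1 stood at 140 ± 1.48 CPM per kb, followed by Cebpa at 19.8 ± 0.878, Cebpb at 12.3 ± 3.91, Bhlhe41 at 10.0 ± 3.61, Bhlhe40 at 9.50 ± 1.24 and Runx1 at 9.39 ± 1.00 CPM per kb. The ranges of these last 4 genes overlapped within their SD. Cebpd stood at 1.502 ± 0.728, Prdm1 at 0.0257 ± 0.0163 and Maf at 0.0215 ± 0.0175 CPM per kb. In KO_LPS cells Spi1 stood at 261 ± 7.41 and Cebpd at 18.3 ± 11.9 CPM per kb, while Bhlhe41 stood at 0.388 ± 0.0647 and Maf at 0.303 ± 0.0152 CPM per kb.

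Across the 6 groups, Spi1 was highest in WT_LPS_JAKi and lowest in WT_JAKi cells, whose libraries overlapped those of KO_UT. Prdm1 was highest in WT_LPS and WT_LPS_JAKi cells, which overlapped, then in KO_LPS cells, and lowest in KO_UT cells. Maf was highest in KO_UT, then KO_LPS cells, with no overlap between them or with any WT group. For Bhlhe40, KO_LPS stood above all other groups, and each of the next groups overlapped its neighbour. All neighbouring groups overlapped for Cebpb.

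Replicate number moved with several of these genes. In the blocked fit, Cebpd was higher in replicate 1 than in replicate 2 by 1.06 on the log2 scale (SE 0.073, adjusted p = 7.44e-07; higher in 6 of 6 groups, by 0.84 to 1.41). Cebpb was higher by 0.63 (adjusted p = 3.29e-06), Runx1 by 0.27 (adjusted p = 1.85e-05) and Cebpa by 0.14 (adjusted p = 0.0067), each in 6 of 6 groups. Bhlhe40 was lower in replicate 1, with a difference of -0.18 (adjusted p = 0.00158) in 6 of 6 groups, and Bhlhe41 was higher by 0.35 (adjusted p = 0.0247) in 4 of 6. Spi1, Maf and Prdm1 were not called. Of all tested genes 49.5% differed between the numbers, and the labels do not say what a number stands for; its part in the results was not tested beyond the block.

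**Figure D5:**
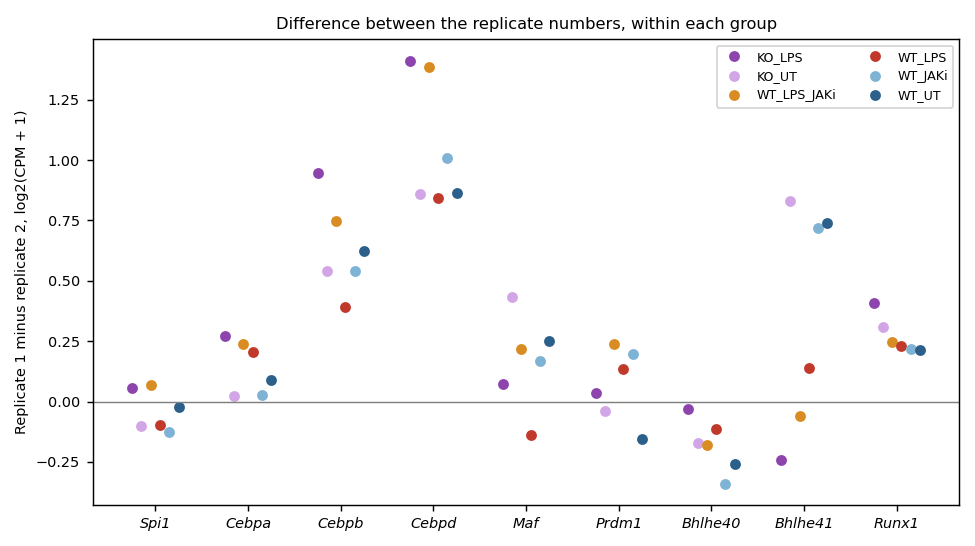
Replicate 1 minus replicate 2 in log2(CPM + 1) (y axis) for each gene (x axis) within each of the 6 groups (colours). Cebpd lies between 0.84 and 1.41 in all groups and Spi1 near 0.

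The genes most like each member over the 6 group means were named by the smallest root mean square difference of centred log2(CPM + 1) profiles among 9218 candidates. For Spi1 these were Srf (0.0505) and Ctu1 (0.0513), against a median of 0.712 over the candidates, and for Runx1 they were Ing2 (0.0457) and Ipmk (0.0483), against 0.344. For Cebpd they were Ehd1 (0.110) and the AP-1 gene Junb (0.121), against 1.69, and for Bhlhe41 the sphingosine-1-phosphate receptor gene S1pr1 (0.200) and Lhfpl2 (0.303), against 1.85. For Prdm1 they were Ifnb1, the interferon beta gene (0.270), and the kinase gene Src (0.286), against 2.31. Ifnb1 stood at 12.6 CPM in KO_LPS, 26.3 in WT_LPS_JAKi and 29.7 in WT_LPS cells, and Src at 20.2, 49.2 and 47.3 CPM. For Maf they were Tcam1 (0.211) and Slamf8 (0.220), against 0.954; Tcam1 stood at 8.70 CPM in KO_UT and 0.868 CPM in WT_UT cells. The profiles of Cebpa, Cebpb and Bhlhe40 spanned less than 1 and were not matched.

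Other genes of these families and networks were followed as lists. Of 22 tested relatives of the 9 factors (34 listed), 4 were higher and 8 lower with LPS in KO cells, 3 and 11 with the inhibitor and 6 and 11 in WT cells. Over all tested genes 66.7%, 64.2% and 67.3% were called. Rescaled, the relatives counted 7 and 6, 5 and 6, and 8 and 6, beside 59.6%, 59.1% and 58.7% of all genes. The small MAF gene Maff had 35.2 and 24.7 CPM in KO_LPS, against 1.53 and 1.39 CPM in KO_UT cells, a change of 3.63 (adjusted p = 1.44e-07), and changed by 3.59 in WT cells (adjusted p = 1.62e-07). The ETS gene Ets2 rose by 2.00 in KO cells (adjusted p = 3.51e-06) and 2.31 in WT cells (adjusted p = 1.37e-06), while the ETS gene Fli1 fell, with changes of -2.44 (adjusted p = 3.32e-07) and -2.19 (adjusted p = 6.96e-07).

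Ets2 was also higher in KO cells in both conditions. It had 558 and 585 CPM in KO_LPS, against 306 and 352 CPM in WT_LPS cells, a change of 0.80 (adjusted p = 0.00971). It had 140 and 146 CPM in KO_UT, against 57.4 and 74.0 CPM in WT_UT cells, a change of 1.12 (adjusted p = 0.00222). Of the relatives, 3 were called higher in KO cells with LPS, the others being Cebpg (0.47, adjusted p = 0.0135) and Mafg (0.34, adjusted p = 0.0263), and 0 lower, beside 13.9% of all tested genes called in either direction. With the block 7 were higher and 3 lower, beside 31.5%. In untreated cells 2 were higher and 0 lower, beside 9.68% of all tested genes, and 8 and 1 with the block, beside 24.6%. Their median difference was 0.050 with LPS and 0.020 untreated, against 0.0015 and -0.0091 over all genes.

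Of 30 tested other myeloid transcription factors (35 listed), 11 were higher and 14 lower with LPS in KO cells, 10 and 13 with the inhibitor and 10 and 15 in WT cells. Over all tested genes 66.7%, 64.2% and 67.3% were called. Rescaled, the other factors counted 12 and 12, 14 and 12, and 12 and 12, beside 59.6%, 59.1% and 58.7% of all genes. The zinc-finger gene Egr2 rose by 3.91 in KO cells (adjusted p = 1.96e-06) and 3.84 in WT cells (adjusted p = 2.24e-06). Klf4, a Krüppel-like factor gene, had 4.03 and 2.74 CPM in KO_LPS, against 54.8 and 39.1 CPM in KO_UT cells, a change of -3.45 (adjusted p = 8.95e-07), and changed by -3.80 in WT cells (adjusted p = 5.08e-07). Between KO and WT cells, 4 were higher and 7 lower with LPS and 1 higher and 5 lower untreated, beside 13.9% and 9.68% of all tested genes called. With the block these counts were 10 and 9 with LPS and 5 and 9 untreated, beside 31.5% and 24.6% of all tested genes. Rara, a retinoic acid receptor gene, had 21.2 and 14.9 CPM in KO_LPS, against 5.94 and 6.61 CPM in WT_LPS cells, a change of 1.37 (adjusted p = 0.000204). Rxra, the gene of its partner, was lower in KO cells, with a change of -0.82 with LPS (adjusted p = 0.00199) and -0.88 untreated (adjusted p = 0.0019). Mef2c, a MADS-box factor gene, was lower too, with -0.57 (adjusted p = 0.00042) and -0.30 (adjusted p = 0.0186).

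Of 23 myeloid genes that textbook accounts give as bound by PU.1, C/EBP or RUNX1, 5 were higher and 8 lower with LPS in KO cells, 4 and 5 with the inhibitor and 4 and 8 in WT cells, beside 66.7%, 64.2% and 67.3% of all tested genes called. Rescaled, the counts were 6 and 5, 7 and 4, and 6 and 4, so the majority direction turned in all 3 settings, and with the block they were 6 and 13, 7 and 12, and 6 and 13. Cd14, the LPS co-receptor, had 2427 and 2424 CPM in KO_LPS, against 955 and 1099 CPM in KO_UT cells, a change of 1.24 (adjusted p = 6.76e-07), and changed by 1.25 in WT cells (adjusted p = 7.03e-07). The Fc receptor gene Fcgr1 changed by -2.25 in KO cells (adjusted p = 7.99e-07) and -1.89 in WT cells (adjusted p = 2.59e-06). Between KO and WT cells, 2 were higher and 10 lower with LPS, beside 13.9% of all tested genes called, and 4 and 17 with the block, beside 31.5%. Untreated, 2 were higher and 7 lower, beside 9.68%, and 3 and 15 with the block, beside 24.6%. The median difference was -0.29 in both conditions, against 0.0015 and -0.0091 over all tested genes. The 2 called higher in KO cells were Msr1 and Cd14. Msr1 changed by 0.32 with LPS (adjusted p = 0.0283) and 0.51 untreated (adjusted p = 0.00352). Cd14 changed by 0.30 (adjusted p = 0.0326) and 0.31 (adjusted p = 0.0376). Cd33, a sialic acid-binding receptor gene, had 30.2 and 18.1 CPM in KO_LPS, against 108 and 77.9 CPM in WT_LPS cells, a change of -1.93 (adjusted p = 0.00201), and 35.5 and 27.2 CPM in KO_UT, against 133 and 92.7 CPM in WT_UT cells, a change of -1.80 (adjusted p = 0.00409). Adgre1, the gene of F4/80, was lower in KO cells, with a change of -1.30 with LPS (adjusted p = 0.000357) and -0.95 untreated (adjusted p = 0.00292), as was Mpeg1, the gene of a pore-forming protein, with -0.76 (adjusted p = 0.00928) and -0.69 (adjusted p = 0.0194). Some of these genes are also among the macrophage markers, whose summed level was mostly Lyz2 and was lowest in KO_LPS cells. The part of this in the result was not tested.

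Of 7 tested regulators of C/EBP and BLIMP-1 proteins and targets of BLIMP-1 (9 listed), 3 were higher and 2 lower with LPS in each of the 3 settings. Over all tested genes 66.7% were called in KO cells, 64.2% with the inhibitor and 67.3% in WT cells. Rescaled, 1 of the 7 was lower in WT cells. Myc, which BLIMP-1 represses in B cells, had 165 and 156 CPM in KO_LPS, against 3.16 and 5.15 CPM in KO_UT cells, a change of 4.997 (adjusted p = 4.43e-07), and changed by 5.15 in WT cells (adjusted p = 3.80e-07). Bcl6, which opposes Prdm1 in B cells, changed by 0.70 in KO cells (adjusted p = 0.000399) and 0.66 in WT cells (adjusted p = 0.000562). Rfwd2, the ubiquitin ligase gene also called Cop1, changed by 0.90 (adjusted p = 1.42e-06) and 0.82 (adjusted p = 2.75e-06). Between KO and WT cells with LPS, Trib3 had 7.18 and 4.38 CPM in KO_LPS, against 1.20 and 0.780 CPM in WT_LPS cells, a change of 1.74 (adjusted p = 0.00027). Of the 7, 1 was higher and 0 lower with LPS, beside 13.9% of all tested genes (3 and 0 with the block, beside 31.5%). Untreated, 2 were higher and 0 lower, beside 9.68%. With the inhibitor added to LPS, 1 gene of the relatives was lower and 0 genes of the other 3 lists were called, beside 1.11% of all tested genes. With the block, 3 relatives were lower and 1 of the other myeloid factors was higher and 3 lower, beside 446 of the 10899 tested genes.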

How the data were processed

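The authors deposited a table of CPM per gene symbol and library; per the submitters' processing notes it came from TopHat2 2.1.0, HTSeq and edgeR on builds named mm10 and GRCm38. Per the labels, libraries were made with a TruSeq RNA kit; other versions, the annotation and the strand setting are not given there. The deposited CPM included 5 rows that name no gene. Of counted alignments (57.1 to 74.2 M) 58.9 to 64.1% fell in genes, 28.6 to 34.9% were not unique, 5.00 to 6.37% hit no feature and 0.994 to 1.13% were ambiguous. CPM were rescaled to gene reads. Multiplied out, 100% of values were whole reads within 0.02 reads, and these reads went into the count tests. In all, 4 columns matched no label and were not used.

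The main test was limma-trend (limma 3.58.1, R 4.3.3) on log2(CPM + 1), fitted once with 6 group means over all 12 libraries (6 residual and 3.54 prior degrees of freedom), with Benjamini-Hochberg adjustment over 10899 genes and calls under 0.05. A fold on this scale understates changes of low genes. On simulated data the fit was tested first. Alternatives were median-of-ratios scaling, deposited CPM, a pseudocount of 0.25, no filter or 5 CPM, a replicate block, only the groups compared, edgeR 4.0.16 (quasi-likelihood, TMM), DESeq2 1.42.0 and leaving out each library. The replicate term was added after the data were seen. Over genes, deviations of libraries with the same number were correlated in each of 15 pairs of groups (r 0.468 to 0.737, median 0.622). The numbers were therefore taken as a pairing in the blocked fit. The main fit had no replicate term, so its SE include the difference between the numbers. No shared day or batch is named. Replicates had r of 0.995 to 0.997 and differed beyond sampling of reads (chi-square per degree of freedom 16.5 to 33.7).

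The members and lists were chosen with earlier results of these data known. Named list genes are up to 4 per list and comparison with the largest called change, groups that do not overlap and 5 CPM or more on average in the higher one; not all are printed. Likeness was computed for members whose group means span at least 1, with the 2 closest genes named. Separate cultures are not named in the labels, and the p-values therefore reflect the spread of these libraries alone, and that spread may be technical. Positions are from GENCODE on GRCm38, matched by symbol.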

Additional observations from a re-analysis of the deposited data

Results flagged for a closer look

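Prdm1 had an interaction of KO with LPS that limma called on log2(CPM + 1), at -1.67 (SE 0.16, adjusted p = 0.00335; KO minus WT, in both replicate numbers, at -1.78 and -1.56). The change with LPS was 3.08 in KO and 4.74 in WT cells on that scale, and the ratios of pooled levels were 202 (68.8 to 982) and 214 (119 to 428), from 3 reads without LPS in KO cells and 11 in WT cells. Across alternatives the adjusted p ran up to 1.0. The interaction was -0.18 by edgeR (adjusted p = 0.9998) and -0.093 by DESeq2, so a different ratio in KO and WT cells was not shown.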

How the results depend on the processing

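The tally of member results covered every member for the changes with LPS and for KO against WT cells. For the interaction of KO with LPS it covered Maf, Prdm1, Bhlhe40 and Bhlhe41 only. For the comparisons that test the inhibitor it covered only the members with the lowest and the highest change. Outside the settings that leave out a library, these results kept direction and side of the threshold in 449 of their values. They passed it newly in 29, lost it in 9 and reversed in 1. The reversal was that of Bhlhe41 in KO against WT cells with LPS, at -0.020 with CPM as deposited. With libraries left out in turn, 213 were unchanged in direction and call, 3 newly passed, 7 lost the call and 21 reversed, none of them a called value. Members called for KO against WT untreated (1) were 2 with deposited CPM, 0 with the 5 CPM filter (where Maf was not tested), 4 with the replicate block, 2 by DESeq2 and 1 to 2 with a library left out. For KO against WT with LPS (3) they were 5 with the block and 2 with any library left out. For the interaction of KO with LPS (1) they were 0 with a pseudocount of 0.25, 3 with the block, 0 by edgeR, 2 by DESeq2 and 1 to 2 with a library left out. The cause was not tested.

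Among the tallied results, reversals with a library left out gave the following ranges, and reversals outside that tally are not listed. Cebpb with LPS in WT cells ran from -0.073 to 0.55. In untreated KO against WT cells, Cebpb ran from -0.047 to 0.58 and Runx1 from -0.24 to 0.071. In KO against WT cells with LPS, Cebpd ran from -0.43 to 0.98, Bhlhe41 from -0.10 to 0.14 and Runx1 from -0.031 to 0.38. With the inhibitor added to LPS, Maf ran from -0.21 to 0.0056 and Cebpd from -0.28 to 1.11. With the inhibitor alone, Cebpb ran from -0.17 to 0.45. In the interaction of inhibitor and LPS, Bhlhe41 ran from -0.57 to 0.17 and Cebpd from -0.40 to 0.98.

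Over all genes, calls for KO against WT untreated (1055) were 2685 with the block and 477 to 548 with a library left out, and with LPS (1510) they were 3438 with the block, 914 with only the groups compared and 871 to 934 with a library left out. For the interaction of KO with LPS (45) they were 19 with a pseudocount of 0.25, 76 with no filter, 413 with the block, 10 by edgeR, 80 by DESeq2 and 18 to 34 with a library left out. For the inhibitor in LPS-treated cells (121) the block gave 446 and leaving out a library 59 to 96, for the inhibitor alone (0) the block gave 4 and leaving out a library 0 to 1, and for the interaction of inhibitor and LPS (64) the block gave 318, DESeq2 118, only the groups compared 37 and leaving out a library 30 to 54. Depth limits Prdm1 without LPS (3 to 14 reads a group) and Maf in WT cells (13 to 42 reads).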
